A study of Mus musculus with 6 samples.

Results

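The 7 genes described here were taken from the 49997 counted in sorted mouse photoreceptors. Tmem116, Cd52, H4c9, Zfp607b and Tcp11 were chosen because their counts were low in libraries that received a guide RNA against Nr2e3. The other 2, Erp29 and Crybg2, entered only by position, as opposite-strand genes annotated to share exons with Tmem116 and Cd52. The 3 Nr2e3-guide libraries (below, guide libraries) came from mice of the Rosa26-Cas9 strain, which make SpCas9 in every cell, injected under the retina with an adeno-associated virus carrying an anti Nr2e3 guide RNA. The 3 control-guide libraries (control libraries) came from mice of the same strain injected with the same virus carrying a control guide RNA. In both groups the virus also carried mCherry under a human GRK1 promoter, which limits the red protein to photoreceptors. About 100000 mCherry-positive cells from the 2 retinas of 1 mouse were sorted for each library 6 months later. The age at injection is given as postnatal day 21 in one place and as 4 weeks in another. Guide replicate 1 was male, guide replicates 2 and 3 were female, and all 3 control animals were male.

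Nr2e3 encodes a nuclear receptor of rods that, together with the rod factor Nrl, keeps cone genes low and rod genes high. The 5 low genes belong to no common pathway and have no textbook role in phototransduction. Tmem116 encodes a membrane protein with several predicted membrane passes, and Erp29 a resident chaperone of the endoplasmic reticulum related to the protein disulfide isomerases. Cd52 encodes a short glycoprotein anchored to the surface of lymphocytes and other leukocytes, and Crybg2 a protein with beta-gamma crystallin domains. H4c9 is one of many genes for the nucleosome protein histone H4, most of which are transcribed in dividing cells. Zfp607b is a zinc-finger gene in a cluster of such genes, and Tcp11 encodes a protein of the t-complex region known from sperm.

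Gene counts per library ran from 24705561 to 33098812 in guide libraries and from 32626751 to 34286248 in control libraries. Levels are in CPM, counts scaled by each library's own normalised size, so that 3 counts come to 0.0802 to 0.131 CPM depending on the library. The 6 rod markers were abundant in every library, with summed levels of 142251 to 150676 CPM with the guide and 134765 to 169663 CPM in controls. Control replicate 3 stood apart from the other controls by its microglia and macrophage markers, which summed to 331.8 CPM, while control replicates 1 and 2 had 38.0 and 39.6 CPM. The same sums were 39.2, 194.9 and 129.0 CPM in guide replicates 1, 2 and 3. Since these are bulk samples, fewer cells of a type and less RNA per cell cannot be told apart.

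Tmem116 was at 5.88, 7.05 and 6.42 CPM in guide replicates 1 to 3, against 24.1, 36.6 and 24.7 CPM in control replicates 1 to 3. Every guide library lay below every control library, and control replicate 2 was the highest of the 6. The means were 6.45 ± 0.587 CPM with the guide and 28.5 ± 7.06 CPM in controls (SD, n = 3 each), a log2 fold change of -2.14 (SE 0.24).

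Cd52 was at 8.12, 8.27 and 10.1 CPM in guide libraries, against 24.1, 34.3 and 24.6 CPM in control libraries. The groups did not overlap, and control replicate 2 was again the highest. The log2 fold change was -1.65 (SE 0.22).

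H4c9 had the largest fold change of the 5 and the lowest level. It was at 0.834, 1.13 and 1.21 CPM in guide libraries, from 22, 26 and 41 counts, against 5.46, 7.10 and 8.60 CPM in control libraries, from 172, 246 and 322 counts. The highest guide library was well under the lowest control library, and the log2 fold change was -2.73 (SE 0.34).

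Zfp607b was at 12.6, 14.6 and 12.6 CPM in guide libraries, against 29.2, 30.1 and 27.8 CPM in control libraries. The control libraries were close together, with a coefficient of variation of 4.14%, and the log2 fold change was -1.13 (SE 0.17).

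Tcp11 was at 10.6, 9.79 and 13.2 CPM in guide libraries, against 27.7, 24.8 and 26.2 CPM in control libraries. The groups did not overlap, and the log2 fold change was -1.22 (SE 0.19).

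These values chose the 5 genes, so they are a description with no test. By edgeR's quasi-likelihood test over 17138 genes, 5 genes passed an adjusted p of 0.05 in the lower direction, a share of 0.0292%, and Tmem116, H4c9 and Cd52 were 3 of them, which follows in part from how they were chosen. The other 2 were the non-coding Gm35878 and the calmodulin-dependent kinase gene Camk1g, at 10.1 ± 1.51 CPM with the guide and 26.4 ± 2.08 CPM in controls (SD, n = 3 each). With 1 library left out, edgeR called 3 of the 7 genes without control replicate 3 and 0 without any other. Non-overlap in the lower direction, which held for all 5 chosen genes, was found for 5.91% of the genes tested. Among males alone, guide replicate 1 against the 3 controls, the log2 fold changes of Tmem116, Cd52, H4c9, Zfp607b and Tcp11 were -2.29, -1.78, -3.09, -1.22 and -1.32. Without control replicate 3 they were -2.24, -1.73, -2.57, -1.17 and -1.23.

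**Figure D1:**
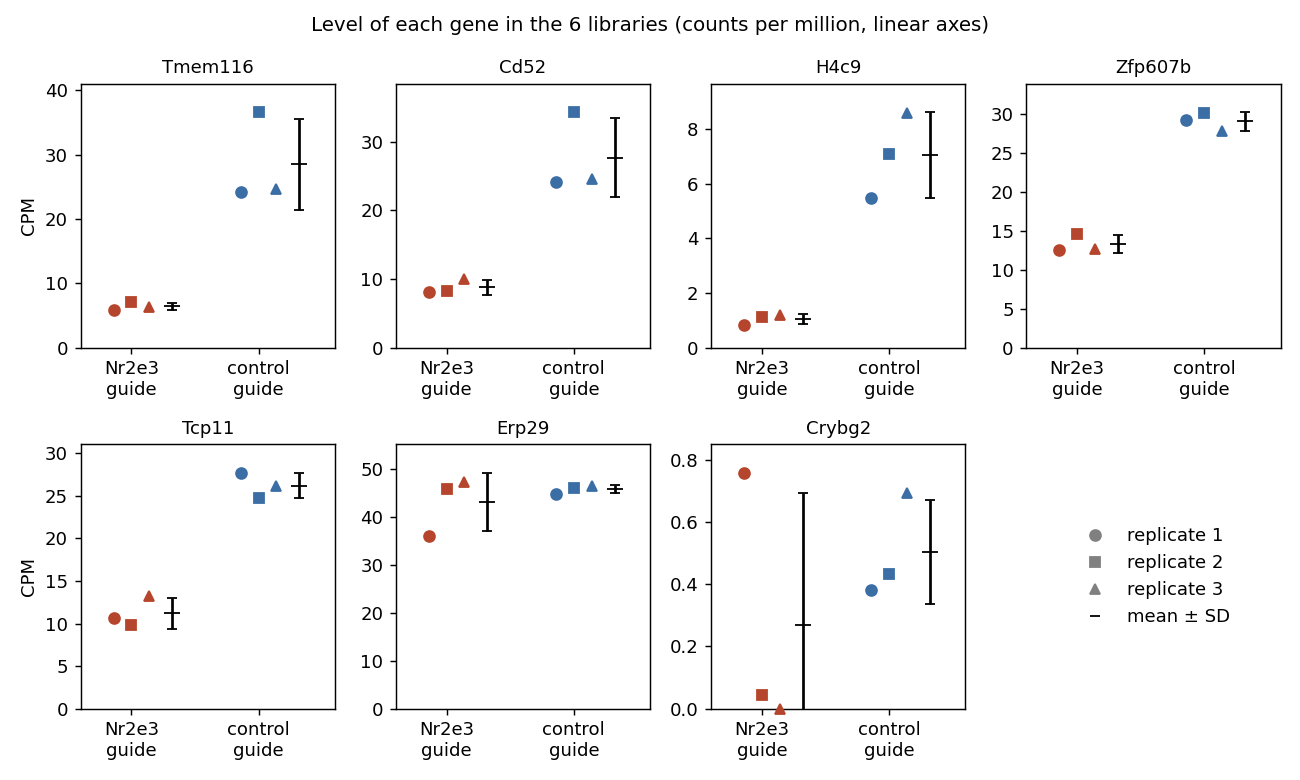
Level of each gene in CPM (linear axes from 0) in guide libraries (red, left) and control libraries (blue, right), with replicates 1 to 3 as circle, square and triangle and the mean ± SD as a bar, cut at 0. The 5 chosen genes are separate between groups, for example Tmem116 with at most 7.05 CPM in guide and at least 24.1 CPM in control libraries, while Erp29 and Crybg2 overlap.

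Erp29, the opposite-strand neighbour of Tmem116, had overlapping groups. It was at 36.0, 45.9 and 47.2 CPM in guide libraries, against 44.7, 46.0 and 46.5 CPM in control libraries. Guide replicate 1 was the lowest, and guide replicate 3 was above all controls, so neither group lay wholly below the other. Because Erp29 was not chosen by its level, its difference was tested, and it did not pass, at -0.09 on the log2 scale (SE 0.16, edgeR adjusted p = 0.995). There were 6.13, 6.51 and 7.36 Erp29 counts per Tmem116 count in guide libraries, against 1.86, 1.26 and 1.88 in control libraries. This ratio is a description only, since Tmem116 was chosen for its low guide counts.

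Crybg2, the opposite-strand neighbour of Cd52, was barely detected. It had 20, 1 and 0 counts in guide libraries and 12, 15 and 26 counts in control libraries. All guide counts but those of replicate 1 were under the limit of 3 counts, and the groups overlapped. On the log2 scale the difference was -0.92 (SE 1.30, edgeR adjusted p = 0.995), it was -4.49 without guide replicate 1, and it was positive at 0.57 among males. Crybg2 passed the count filter only with its control libraries, which favours genes lower with the guide. Its difference is therefore a description only. At this depth no difference was detectable in Crybg2, whose highest library held 26 counts against at least 190 for Cd52.

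The exon sharing of both pairs depends on the annotation. In GENCODE M21, built on the mouse assembly GRCm38, Tmem116 (plus strand) and Erp29 (minus strand) share 180 bases of exon on chromosome 5, from 121452191 to 121452370. They are 4.82% of the exon bases of Tmem116 and lie in 1 of its 10 transcripts and in all 4 of Erp29. Cd52 (minus strand) and Crybg2 (plus strand) share 172 bases on chromosome 4, between 134082448 and 134082719. They are 14.5% of the exon bases of Cd52 and lie in 1 of its 3 transcripts and in 7 of 13 of Crybg2.

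In RefSeq on the same assembly the members of neither pair overlap. Erp29 spans 121444753 to 121452474 and Tmem116 121452580 to 121518188, which leaves 105 bases between them. Crybg2 spans 134060731 to 134092504 and Cd52 134093538 to 134095073, which leaves 1033 bases. Of the 49997 names in the count tables, 49993 matched RefSeq symbols and 37981 matched GENCODE M21 names, while the annotation used for counting is not given in the sources used here. Under RefSeq models the 2 pairs would share no exon bases. Other GENCODE genes share more exon with some of these genes. Adam1a covers 22.7% of the exon bases of Tmem116, Naa25 24.4% of those of Erp29, and AC132460.1 on the same strand 11.6% of those of Tcp11. Hist1h4i, the name of H4c9 in that annotation, and Zfp607b share none.

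**Figure D2:**
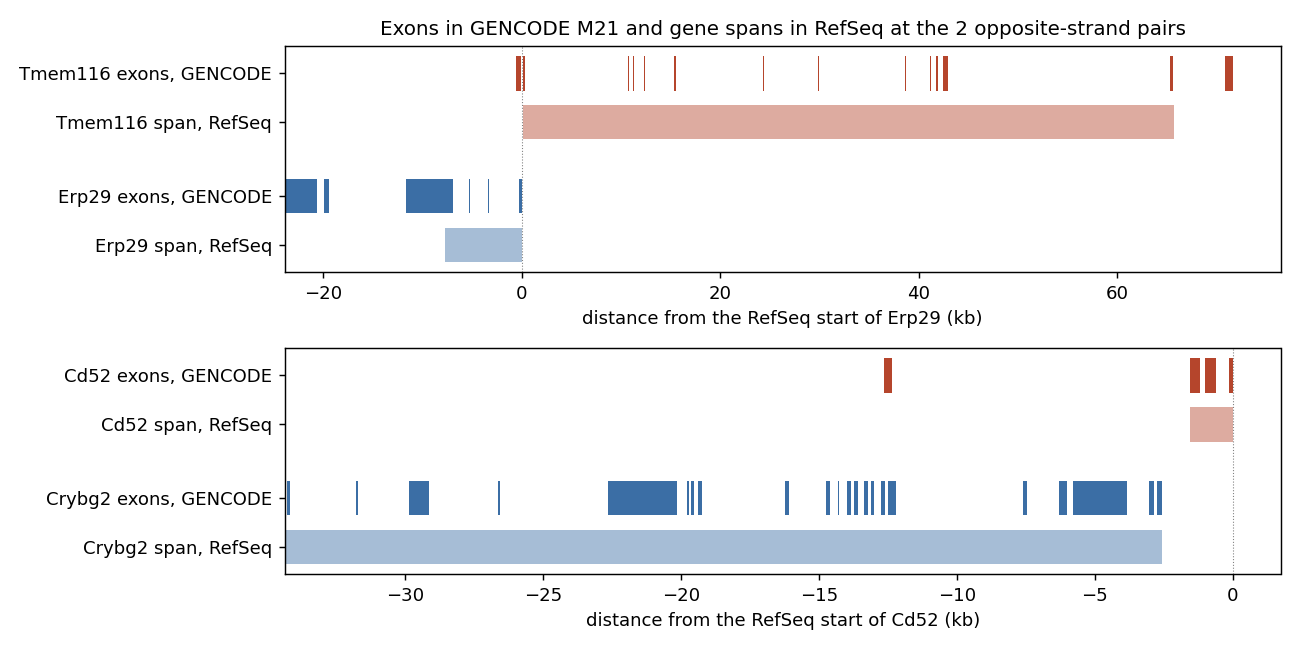
Exons in GENCODE M21 (solid) and gene spans in RefSeq (pale) for Tmem116 and Erp29 (above) and for Cd52 and Crybg2 (below), by distance in kb from the RefSeq start of Erp29 or Cd52. GENCODE exons of the partners meet at 180 and 172 shared bases, whereas the RefSeq spans leave gaps of 105 and 1033 bases.

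The short gap between Erp29 and Tmem116 makes their starts divergent, and in RefSeq Zfp607b is arranged in the same way with Map3k10, a kinase of stress signalling read from the opposite strand, whereas GENCODE M21 starts Zfp607b farther downstream, at 27689340. The windows are printed because each holds both starts of a divergent pair of which 1 gene was chosen as low. They come from RefSeq (GRCm38.p6), run from 250 bases before to 50 after the annotated start of the plus-strand gene, and show in capitals the bases between the RefSeq spans of the 2 genes, 105 for Tmem116 and 30 for Zfp607b. Tmem116 window, chr5:121452459-121452758, plus strand, and Zfp607b window, chr7:27674411-27674710, plus strand:
Tmem116: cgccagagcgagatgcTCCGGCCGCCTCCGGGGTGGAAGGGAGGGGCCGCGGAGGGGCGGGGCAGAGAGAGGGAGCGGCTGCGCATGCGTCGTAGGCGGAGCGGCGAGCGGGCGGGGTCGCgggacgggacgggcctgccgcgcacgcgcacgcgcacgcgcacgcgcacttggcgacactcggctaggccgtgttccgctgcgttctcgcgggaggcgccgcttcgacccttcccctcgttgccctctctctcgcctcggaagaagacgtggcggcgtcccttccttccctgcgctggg
Zfp607b: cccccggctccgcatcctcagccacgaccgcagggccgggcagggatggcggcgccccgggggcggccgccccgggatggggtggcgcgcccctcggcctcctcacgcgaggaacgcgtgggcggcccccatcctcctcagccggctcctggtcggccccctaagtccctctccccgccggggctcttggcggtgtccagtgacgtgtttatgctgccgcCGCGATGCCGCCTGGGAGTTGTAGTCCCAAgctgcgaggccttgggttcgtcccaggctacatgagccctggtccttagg
Both windows are rich in CpG, with 48 and 31 against a median of 7 over 32817 RefSeq windows of the same length. Map3k10 was on average at 3.61 ± 1.36 CPM with the guide and 2.80 ± 1.55 CPM in controls (SD, n = 3 each), 0.36 on the log2 scale (SE 0.50, edgeR adjusted p = 0.995). At both divergent starts the chosen gene was lower in every guide library, and for the gene on the other strand the groups overlapped. The first follows from how the genes were chosen. As for the second, only 5.91% of all genes tested lay wholly below the controls and 6.2% wholly above. This contrast is therefore a description only.

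Promoter windows were found for 5 of the 7 genes, 8 windows in all, and were searched on both strands for 4 short motifs. AAGTCA, the half-site of NR2E3, was in 1 of the 8, window 3 of Tcp11, and in 15.1% of all 32817 windows. TAATCC, the site of the photoreceptor factor CRX, was also in 1, window 2 of Tmem116, with 2 matches, and in 7.06% of all windows. TATAA was in the window of H4c9, with 3 matches, and in 24.9% of all, and CCAAT was in 0 of the 8 and 37.4% of all. These 3 windows are printed to show the matches in capitals, each 5′ to 3′ on its gene's strand. They are Tmem116, window 2, chr5:121462931-121463230, plus strand, H4c9, chr13:22041313-22041612, minus strand, and Tcp11, window 3, chr17:28079715-28080014, minus strand:
Tmem116: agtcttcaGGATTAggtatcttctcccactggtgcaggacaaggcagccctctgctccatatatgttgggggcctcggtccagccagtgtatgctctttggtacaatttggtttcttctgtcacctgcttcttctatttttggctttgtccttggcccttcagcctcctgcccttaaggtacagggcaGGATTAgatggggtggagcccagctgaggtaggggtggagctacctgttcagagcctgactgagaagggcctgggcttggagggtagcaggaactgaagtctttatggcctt
H4c9: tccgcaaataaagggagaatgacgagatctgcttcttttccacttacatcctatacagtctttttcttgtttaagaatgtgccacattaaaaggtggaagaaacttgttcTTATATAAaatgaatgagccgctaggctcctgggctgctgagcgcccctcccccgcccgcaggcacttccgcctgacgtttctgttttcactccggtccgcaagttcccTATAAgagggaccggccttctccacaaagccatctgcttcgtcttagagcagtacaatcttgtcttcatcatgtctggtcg
Tcp11: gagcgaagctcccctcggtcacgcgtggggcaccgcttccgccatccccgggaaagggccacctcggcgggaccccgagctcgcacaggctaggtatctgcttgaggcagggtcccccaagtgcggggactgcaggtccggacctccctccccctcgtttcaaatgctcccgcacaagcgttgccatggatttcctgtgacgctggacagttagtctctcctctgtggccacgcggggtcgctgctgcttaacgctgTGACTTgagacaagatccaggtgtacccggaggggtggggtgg
The last TATAA of H4c9 begins at position 220 of the window and the gene at position 251. The AAGTCA of Tcp11, read on the opposite strand, begins at position 258, after the start. A match is a string of letters and no evidence of binding.

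No tested neighbour at the 5 loci was called by edgeR, and of the chosen genes Zfp607b and Tcp11 were not called either. Of the 30 nearest tested genes, 3 on each side of each locus, 0 passed by edgeR in either direction, against 0.344% of genes tested. At so small a share, a count of 0 among 30 genes, or in the shorter lists below, says little. An unadjusted p under 0.05 was found for 2 of the 30, Lin28a and Hmgn2, both at the Cd52 locus and lower with the guide. It was found for 976 of the 17138 genes tested. The median log2 fold change of the 30 was -0.04, against -0.01 over all genes tested. Guide libraries lay below all controls for 5 of the 30 and above them for 2, against 5.91% and 6.2% of all genes tested. Of those 5 below, 4 were among the 6 neighbours of the Cd52 pair (Lin28a, Hmgn2, Dhdds and Sh3bgrl3).

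Next to Tmem116, Adam1a, a gene of the ADAM family 415 bases beyond its end, was on average at 4.38 ± 1.16 CPM with the guide and 7.66 ± 4.03 CPM in controls (-0.80 on the log2 scale, SE 0.42, edgeR adjusted p = 0.957). Naa25, a subunit of an amino-terminal acetyltransferase on the other side of Erp29, had a log2 fold change of -0.17 (SE 0.13). Next to the Cd52 pair, Lin28a, which encodes an RNA-binding protein that blocks let-7 maturation, was on average at 7.52 ± 1.57 CPM with the guide and 18.3 ± 6.21 CPM in controls (SD, n = 3 each). Its difference of -1.29 on the log2 scale (SE 0.30, edgeR adjusted p = 0.262) was the lowest of the 30 and did not pass. Hmgn2, a nucleosome-binding protein gene, Sh3bgrl3 and Dhdds had log2 fold changes of -0.42 (SE 0.15, edgeR adjusted p = 0.719), -0.34 (SE 0.25) and -0.18 (SE 0.16), and Ubxn11, nearest on the other side of Cd52, had 0.03 (SE 0.19). Beside Zfp607b, the log2 fold change of Zfp60 was -0.02 (SE 0.18). The tested genes nearest to H4c9 lie far from it, Zfp184 at 80168 bases and Zfp322a at 1311740, and had log2 fold changes of 0.27 (SE 0.27) and 0.15 (SE 0.14). Beside Tcp11, the log2 fold change of Anks1 was -0.10 (SE 0.51), and 4930526A20Rik, which lies within the span of Tcp11, had -0.59 (SE 0.55).

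**Figure D3:**
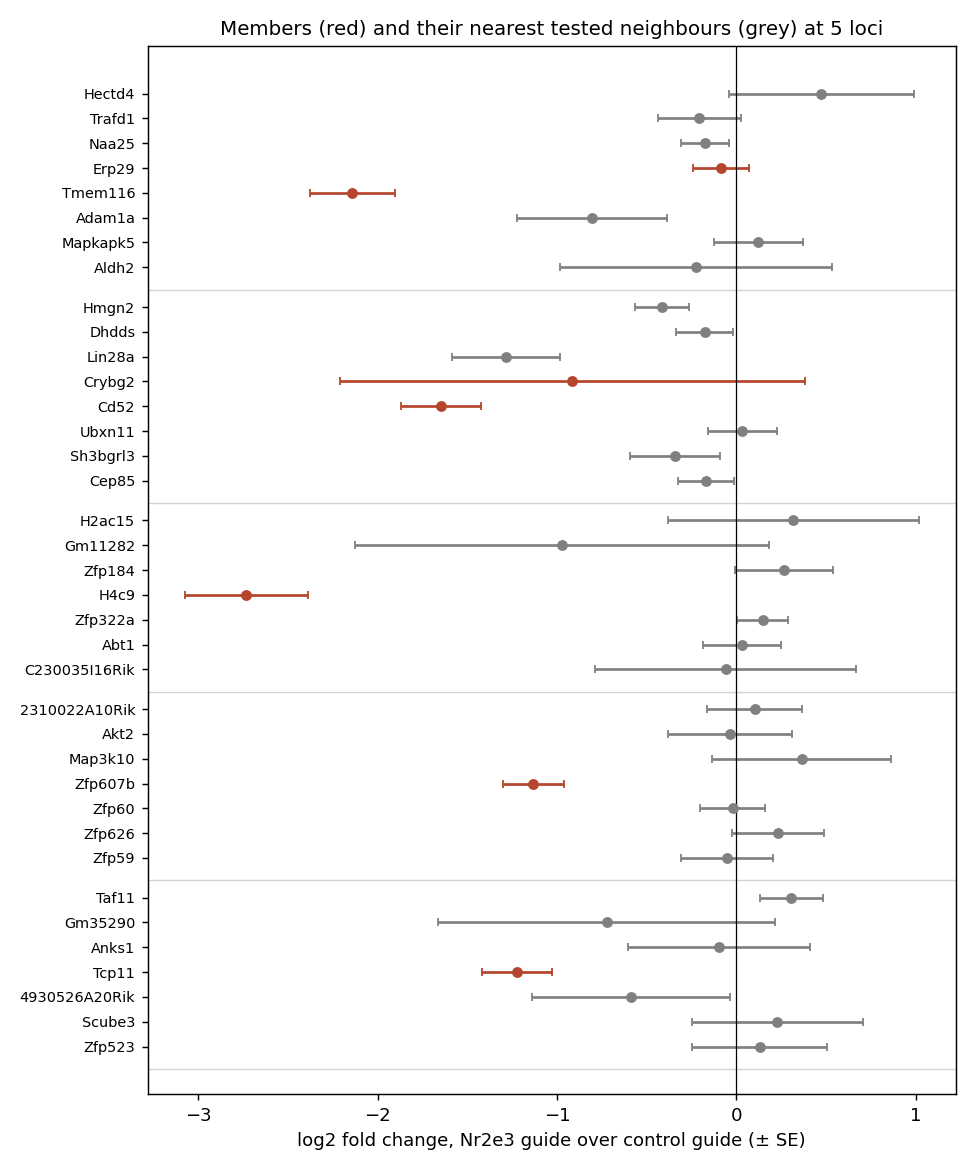
Log2 fold change of guide over control libraries with its SE (horizontal axis) for the 7 genes (red) and the 3 nearest tested genes on each side of each of 5 loci (grey, in chromosomal order). The 5 chosen genes lie between -2.73 and -1.13, Lin28a at -1.29, and the other 29 neighbours between -0.97 and 0.47.

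Cd52 was set beside markers of the cells known for it. In control replicate 3 the 7 pan-leukocyte markers summed to 65.8 CPM, against 9.88 and 9.98 CPM in control replicates 1 and 2, and Cd52 was at 24.6 CPM there and at 24.1 and 34.3 CPM in those. In guide libraries the same markers summed to 14.9, 31.1 and 28.7 CPM, and Cd52 was at 8.12, 8.27 and 10.1 CPM. Of 13 lymphocyte markers, 3 had 0 counts in every library, and all 13 summed to at most 2.59 CPM with the guide and 1.53 CPM in controls. Of the T cell genes on that list, Trac and Cd3d were at 0 in all libraries, Cd3e, Cd3g and Cd4 had at most 10 counts in any, and Cd8a had 0, 23 and 26 counts in guide and 8, 35 and 15 counts in control libraries. Ptprc, the general leukocyte antigen, had 26, 13 and 65 counts in guide and 10, 3 and 103 counts in control libraries. Of the tested genes in the lymphocyte, pan-leukocyte and microglia lists (2, 7 and 13), 0 passed by edgeR in either direction and 0 had an unadjusted p under 0.05. The summed amacrine and pigment epithelium lists varied between libraries too. The 8 amacrine genes summed to 61.5 to 277.6 CPM with the guide and 132.3 to 336.2 CPM in controls. The 7 pigment epithelium genes summed to 35.8 to 81.3 CPM with the guide and 42.8 to 108.7 CPM in controls. Most of that sum was Rlbp1, which is also a Muller glia marker, at 33.9 to 92.6 CPM over the libraries. Rpe65 had at most 3 counts in any library. None of the tested genes on either list passed by edgeR. An unadjusted p under 0.05 was found for 0 of the 8 amacrine and 1 of the 4 tested pigment epithelium genes, Rdh5 (log2 fold change -1.86, SE 0.51). It was found for 976 of the 17138 genes tested. All 8 and all 4 had negative log2 fold changes, with medians of -0.60 and -2.12, against -0.01 over all genes tested. Dct had 27, 0 and 41 counts in guide libraries, against 255, 225 and 0 in control libraries. The amacrine and pigment epithelium sums were both lower in control replicate 3 than in the other controls, while H4c9 was highest and Zfp607b lowest of the controls there. The part of these cells in the results was not tested.

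**Figure D4:**
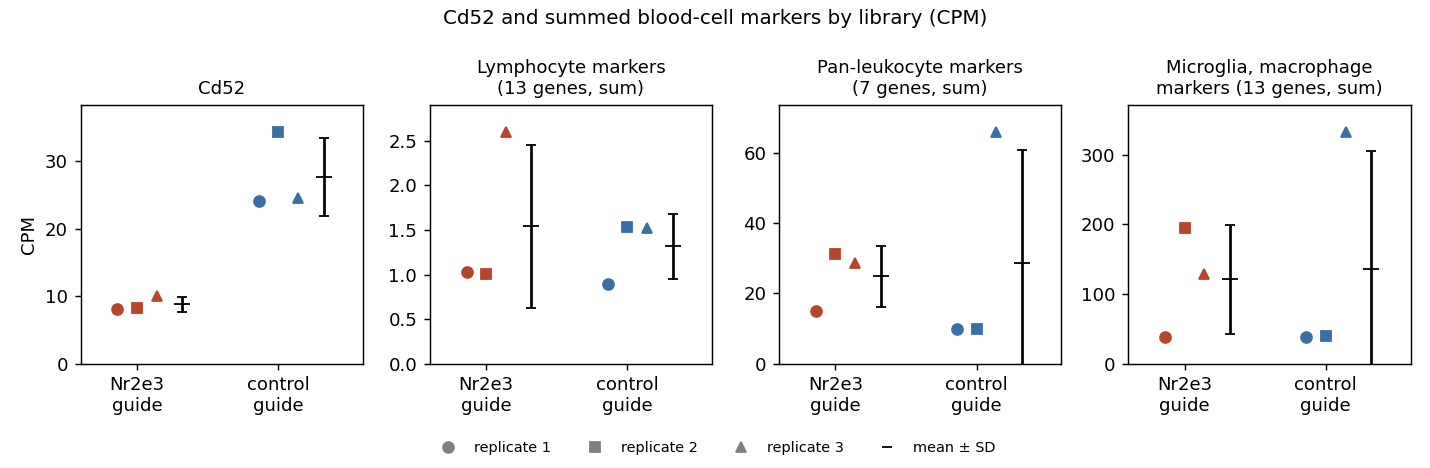
Cd52 and the summed level of 13 lymphocyte, 7 pan-leukocyte and 13 microglia and macrophage markers in CPM (linear axes from 0), guide libraries in red and control libraries in blue, with the mean ± SD as a bar, cut at 0. Control replicate 3 has the highest pan-leukocyte sum (65.8 CPM), while its Cd52 level (24.6 CPM) is close to that of control replicate 1 (24.1 CPM).

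H4c9 was set beside the other histone H4 genes, whose coding sequences are closely alike. Over 312 coding bases H4c9 differed from H4c17 and H4c18 at 10 positions each, from the others on chromosome 13 at 13 to 24, and from H4c14 and H4f16, on chromosomes 3 and 6, at 36 and 41. Of the windows of 50 bases in the H4c9 transcript, 28.9% also occur in another gene, and a read of that length from them could not be placed on 1 gene. The read length is not given in the sources used here. The stretch below, coding bases 241 to 300 in GENCODE M21, holds 5 of the 10 differences between H4c9 and H4c17, in capitals. It was picked because no stretch of 60 bases holds more, and H4c17 because no other copy is closer:
H4c9: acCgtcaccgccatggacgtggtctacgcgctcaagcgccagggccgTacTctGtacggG
H4c17: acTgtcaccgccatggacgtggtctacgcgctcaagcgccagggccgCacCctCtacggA
H4c17 and H4c18 were themselves nearly silent, with 2 and 0 counts over all 6 libraries.

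Of the 12 other H4 genes, 5 had enough counts to be tested, and 0 passed by edgeR in either direction. Each of the 5 had a negative log2 fold change, and the median was -0.75, against -0.01 over all genes tested. An unadjusted p under 0.05 was found for 3 of the 5, all lower with the guide, and for 976 of the 17138 genes tested, 448 of them lower. H4c14 had 18, 5 and 34 counts in guide libraries, against 77, 80 and 94 counts in control libraries (log2 fold change -1.91, SE 0.57, edgeR adjusted p = 0.520). H4c8 had 12, 23 and 37 counts in guide libraries, against 65, 74 and 59 counts in control libraries (log2 fold change -1.18, SE 0.48, edgeR adjusted p = 0.860). H4c3 also had groups that did not overlap (log2 fold change -0.75, SE 0.32), so that this held for 3 of the 5, against 5.91% of all genes tested. H4c14 and H4f16, each with 5 counts in guide replicate 2, passed the count filter only with their control libraries. Passing in that way favours genes lower with the guide, so the count and the median are a description only. H4c4, the most abundant, was at 9.18, 14.6 and 11.9 CPM in guide libraries, against 16.1, 15.5 and 5.88 CPM in control libraries, with a log2 fold change of -0.07 (SE 0.40). These values may be affected by the likeness of the copies. Reads aligned to more than 1 place were counted apart from genes (4.23 to 6.25% of each table's counts), so shared stretches may lower these counts.

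**Figure D5:**
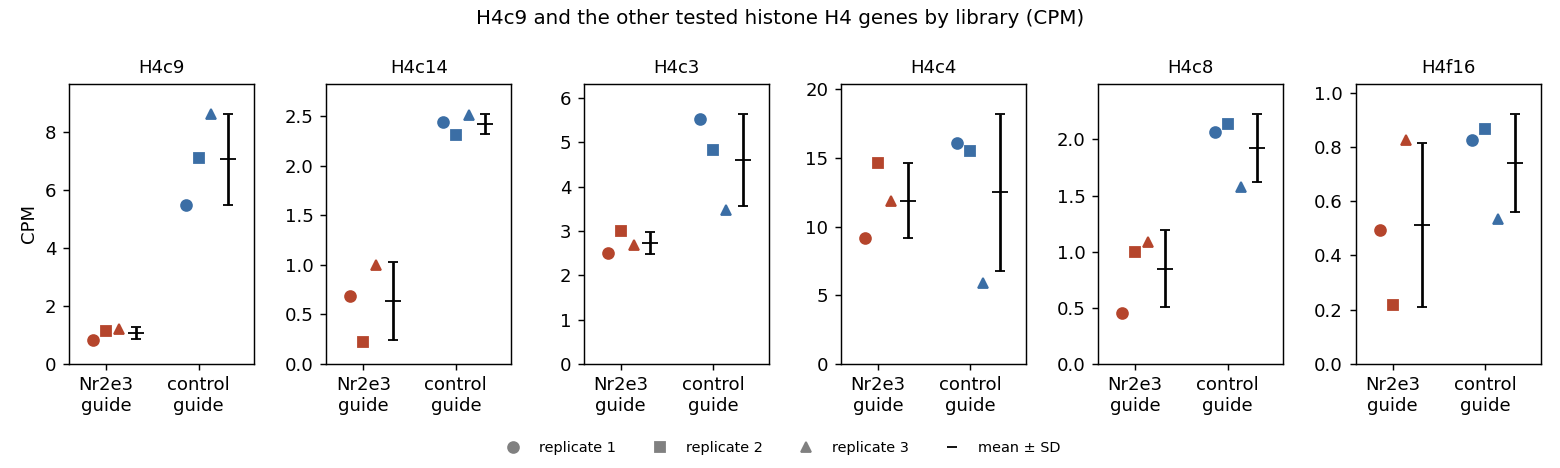
H4c9 and the 5 other histone H4 genes with enough counts to be tested, in CPM (linear axes from 0, scaled for each gene), guide libraries in red and control libraries in blue, with the mean ± SD as a bar. H4c9, H4c14, H4c3 and H4c8 do not overlap between groups, while H4c4 and H4f16 do.

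Of 56 other clustered and linker histone genes, 11 were tested and 0 passed by edgeR. The median log2 fold change was -0.64, against -0.01 over all genes tested. H2bc6 and H1f2 had an unadjusted p under 0.05, both lower with the guide (log2 fold changes -0.99, SE 0.32, and -0.91, SE 0.35), against 976 of the 17138 genes tested. These 2, H1f1 (-1.41, SE 0.74) and H2bc9 (-1.57, SE 0.74) were below all controls in every guide library, 4 of the 11 against 5.91% of all genes, and 0 were above. H1f1 had 8, 13 and 3 counts in guide libraries, and H2bc9 had 3, 9 and 20. H3c15, whose log2 fold change is the median, had 12, 7 and 30. These genes passed the count filter only with their control libraries, which favours genes lower with the guide. The count of non-overlapping genes and the median are therefore a description only. H2bc4, the most abundant, ranged from 32.9 to 191.3 CPM with the guide and from 108.8 to 179.6 CPM in controls. Of 10 markers of dividing cells, 5 were tested and 0 passed or had an unadjusted p under 0.05. Mki67, the standard proliferation marker, had 0, 0 and 11 counts in guide and 0, 0 and 6 counts in control libraries.

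None of the relatives of the other genes passed, which says little at a share of 0.344% over all genes tested. Of 25 tested enzymes and chaperones of folding in the endoplasmic reticulum, the pathway of Erp29, 0 passed by edgeR, and the median log2 fold change was 0.16. Unadjusted p-values were under 0.05 for 3 of them, Pdia6, Txndc5 and Dnajb11, all higher with the guide (log2 fold changes 0.48, 0.55 and 0.56), against 528 higher among the 17138 genes tested. Guide libraries lay above all controls for 4 of the 25 and below them for 1, against 6.2% and 5.91% of all genes. Hsp90b1 and Canx, the chaperones of the highest CPM, had log2 fold changes of 0.36 (SE 0.17) and 0.38 (SE 0.19). Crybg3, a paralogue of Crybg2, was on average at 17.1 ± 2.01 CPM with the guide and 23.9 ± 4.32 CPM in controls (log2 fold change -0.48, SE 0.20, edgeR adjusted p = 0.874), and for Crybg1 the log2 fold change was -0.60 (SE 0.42). Of 8 Zfp genes within 1 Mb of Zfp607b, 0 passed by edgeR and 0 had an unadjusted p under 0.05 (median log2 fold change -0.14). Its namesake Zfp607a was at 4.47, 3.96 and 1.94 CPM in guide libraries, against 4.83, 4.99 and 4.70 CPM in control libraries (difference in log2 -0.49, SE 0.37). Zfp780b, which holds more of the 50-base windows of Zfp607b than any other gene (5.50%), was on average at 56.8 ± 9.10 CPM with the guide and 60.2 ± 2.24 CPM in controls (log2 fold change -0.08, SE 0.16). In the Tcp11 family, Tcp11l1 and Tcp11l2 had log2 fold changes of -0.44 (SE 0.31) and 0.19 (SE 0.17), and Tcp11x2 had 0 counts. Of 16 spermatid genes, 3 were tested, 0 passed by edgeR and 0 had an unadjusted p under 0.05, with Odf2, of sperm outer dense fibres, at a log2 fold change of -0.01 (SE 0.23).

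Per kilobase of GENCODE exon, Cd52 had the highest level in both groups, at 7.43 ± 0.915 CPM per kb in guide and 23.3 ± 4.84 CPM per kb in control libraries (SD, n = 3 each). In guide libraries it was followed by Erp29 (4.75), Tcp11 (2.92), Zfp607b (2.41), Tmem116 (1.73), H4c9 (1.45) and Crybg2 (0.0343 CPM per kb). Of neighbours in that order, Tcp11 and Zfp607b overlapped in their libraries, as did Tmem116 and H4c9. In control libraries Cd52 was followed by H4c9 (9.70), Tmem116 (7.63), Tcp11 (6.83), Zfp607b (5.27), Erp29 (5.05) and Crybg2 (0.0645 CPM per kb). There H4c9 overlapped Tmem116, Tmem116 overlapped Tcp11, and Zfp607b overlapped Erp29. These levels depend on the exon models, and the GENCODE exons of Erp29, 9060 bases in all, reach beyond its RefSeq span.

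Likeness over the 6 libraries was measured as Pearson's r of log2(CPM + 1), among genes with a mean of at least 5 CPM, and is a description only, since choosing genes for low guide levels favours a high r among them. Tmem116 was most like Cd52 (r = 0.992), Actl6a (0.988) and Zfp607b (0.987), and Cd52 most like Actl6a (0.998), Tmem116 and Tcf4 (0.981). Tmem116 and Cd52 lie on chromosomes 5 and 4, and both were highest in control replicate 2. H4c9 was most like Acat2, Fbxo38 and 5730455P16Rik (0.989 to 0.991), Zfp607b like Lrrc20 (0.995), Cyp51 and Tmem116, and Tcp11 like Flot1 (0.989), Cask and Rnf157. Erp29 was most like Pwp2 (0.996), Adprh and Gnb1l, and Crybg2 like Nsun2 (0.984), Zfp790 and Gm38396. Between the partners of a pair r was 0.41 for Tmem116 with Erp29 and 0.37 for Cd52 with Crybg2. These values were not particular to the pairs. Over the 5 chosen genes r was 0.41 to 0.45 with Erp29 and 0.37 to 0.43 with Crybg2.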

How the data were processed

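The authors deposited 1 table of raw counts for each library. The submitters' processing notes name DESeq2 1.42.0, HTSeq 0.12.4, STAR 2.7.3a and cutadapt, and the build GRCm38 (mm10). Neither annotation nor strand setting is given in the sources used here, and per the labels' protocols a SMARTer Ultra Low kit was used, which does not mark strand. Left out were 5 entries that name no gene, with 21.6 to 23.7% of each table's counts (ambiguous counts 1.84 to 2.01%). The comparison was fitted over all genes in R 4.3.3 by edgeR 4.0.16 (TMM, filterByExpr with min.count 10, glmQLFit and glmQLFTest, group as the only term, Benjamini-Hochberg adjusted p under 0.05), checked on simulated counts. All 7 genes passed the filter, Crybg2 only with its control libraries. SE was taken as the log2 fold change over the root of the F statistic. The libraries are separate animals. Limits from counts cover counting error only. The genes and lists were chosen with earlier results of these data known. Named were the 7 genes, the 2 most abundant members of each list without a call, the nearest tested neighbours and the 3 most alike genes. Any further gene in the text was picked with its values in view. Alternatives were other scalings, DESeq2, other filters, a replicate block, sex as a term and leaving out each library, and, added after seeing the data, males only and leaving out both replicate-3 libraries. Sequences are from RefSeq (GRCm38.p6) and GENCODE M21.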

Additional observations from a re-analysis of the deposited data

How the results depend on the processing

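The log2 fold changes of Tmem116, Cd52, H4c9, Zfp607b and Tcp11 were negative under each alternative that gave a value (16 each, 15 for H4c9), with ranges of -2.29 to -1.92, -1.83 to -1.47, -3.09 to -2.57, -1.22 to -1.09 and -1.36 to -1.14. That of H4c9 was -3.07 in the fit with a sex term and -3.09 in males alone, both resting on guide replicate 1. Erp29 and Crybg2 did not pass under any alternative. Erp29 was at -0.16 to 0.025 with 1 library left out, positive without guide replicate 1, and at -0.36 in males alone, and Crybg2 at 0.59 in the fit with a sex term and 0.57 in males alone. The number of genes called depended on the setting. In place of 5 lower and 54 higher, edgeR called 3 lower with plain library size, 25 lower and 130 higher with no count filter, 0 lower and 6 higher with a sex term (1305 at unadjusted p under 0.05), and 0 and 0 in males alone (1752). DESeq2's Wald test called 57 lower and 186 higher, with all 5 chosen genes among the lower. Leaving out 1 library gave 0 to 9 lower and 14 to 80 higher (661 to 1730 at unadjusted p under 0.05). Of the 7 genes, edgeR then called 3 without control replicate 3 and 0 without any other library or without both replicate-3 libraries. With the replicate number as a block it called 1 lower (Tmem116) and 31 higher. Same-numbered libraries did not deviate together throughout (r = 0.19, -0.08 and 0.26 for numbers 1, 2 and 3), so the numbers were not used as pairs. H4c9 and Crybg2 rest on few counts and fell out of the filter at a mean of 5 CPM.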
